A study of Mus musculus with 29 samples.

Results

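Ceruloplasmin (Cp) and 9 further genes of iron handling and the acute-phase response were followed in the aortic arch of progeroid, DNA-repair-deficient Ercc1Δ/- mice and their wildtype (WT) littermates. Cp was chosen by its measured values, since it ranked second by p among the 726 genes called higher in Ercc1Δ/- than in WT mice at 22 weeks of age on an ad libitum (AL) diet. Fth1, Ftl1, Tfrc, Slc40a1, Slc11a2, Heph, Lcn2, Hp and Serpina3n were listed with it by function. These are 10 of the 56748 genes in the deposited count table. All except Lcn2 were among the 12353 genes that exceeded 10 counts in over 10 samples and were tested.

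All mice were F1 hybrids of C57BL6J and FVB and lived alone in their cages on AIN93G pellets. Ercc1Δ/- mice carry 1 null allele of the repair gene Ercc1 and 1 allele for a truncated protein, in every cell of the body. At 6 weeks of age there were 5 WT and 5 Ercc1Δ/- mice on AL. At 22 weeks there were 4 WT and 4 Ercc1Δ/- mice on AL and 5 mice of each genotype on dietary restriction (DR). DR began at 7 weeks of age and reached 30% less food from 9 weeks onward. A further WT sample of 22 weeks on AL, 003, was left out for its low total of 400410 counts. Each of the 28 samples came from 1 mouse, and each group held both sexes.

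Iron enters cells bound to transferrin through the transferrin receptor (Tfrc) and crosses the endosomal membrane through the transporter Slc11a2. Excess iron is stored in shells of ferritin heavy and light chains (Fth1, Ftl1), and it leaves cells through ferroportin (Slc40a1), with the copper-containing ferroxidases ceruloplasmin and hephaestin (Heph) oxidizing it for loading onto transferrin. Haptoglobin (Hp) captures free haemoglobin, lipocalin 2 (Lcn2) binds iron-carrying siderophores and Serpina3n inhibits serine proteases. Together with Cp, they rise in plasma during inflammation, driven largely by cytokines of the interleukin 6 family, and are then called acute-phase proteins.

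Part of the iron genes share a regulatory RNA hairpin, which is shown because these transcripts can respond to iron after they are made. Iron regulatory proteins bind this iron-responsive element. They block translation when it lies in the 5′ untranslated region and stabilize the mRNA when it lies in the 3′ untranslated region. The element was searched in GENCODE transcripts (GRCm39) as CNNNNNCAGTGN with 5 paired bases on both sides of the loop. A match stood in the 5′ untranslated region of 0.111% and in the 3′ untranslated region of 0.574% of 21593 genes. Among the 10 genes, Fth1, Ftl1 and Slc40a1 had 1 match each in the 5′ untranslated region, and Tfrc had 4 in the 3′ untranslated region. No match in these letters was found for Cp, Heph, Slc11a2, Hp, Lcn2 or Serpina3n. The sites lie at chr19:9960095-9960124 (Fth1, plus strand), chr7:45109203-45109232 (Ftl1, minus strand), chr1:45964625-45964654 (Slc40a1, minus strand) and, for the first and the last of Tfrc, chr16:32450036-32450065 and chr16:32450527-32450556 (plus strand). They are given 5′ to 3′ with the bulged C and the loop in capitals.
Fth1: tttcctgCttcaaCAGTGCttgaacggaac
Ftl1: tgtcttgCttcaaCAGTGTttgaacggaac
Slc40a1: ccaacttCagctaCAGTGTtagctaagttt
Tfrc, first: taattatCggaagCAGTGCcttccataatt
Tfrc, last: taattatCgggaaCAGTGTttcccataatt

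The promoters of Cp and Serpina3n were searched because Serpina3n was the gene whose levels were most like those of Cp across the 28 samples. The RefSeq promoter table held entries for Cp, Fth1, Ftl1, Tfrc, Lcn2 and Serpina3n, and its sequences were placed in GRCm39 by exact match. In the 250 bases before the start, on both strands, the C/EBP motif TTNCNNAA was found once before each of 2 starts of Cp and 2 times before the start of Serpina3n. It was also found for Fth1, Ftl1 and Lcn2, and it stood in 36.8% of all 32851 promoters. The STAT motif TTCNNNGAA, found in 7.02% of all promoters, was in none of those of these 6 genes, and neither was the NRF2 motif TGACNNNGC (10.2%). A TATA box (TATAAA, 12.4%) preceded the second start of Cp and the first of Fth1, and the hypoxia motif ACGTG (16.6%) preceded the second of Tfrc. The C/EBP matches nearest to the starts began at base -70 for Cp (chr3:20011332-20011361, plus strand) and at base -56 for Serpina3n (chr12:104372900-104372929, plus strand). They are printed with the match in capitals, and that of Cp reads as the motif on the opposite strand.
Cp: attagttactcTTTTGCAAcattaaattgt
Serpina3n: ccatgccagcaTTTCCTAAgaggagggagg

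Counts on genes totalled 921167 to 9616382 per sample. At 22 weeks, totals of WT and Ercc1Δ/- samples did not overlap on either diet. Levels are given in CPM, which are counts scaled to a fixed library total with TMM factors. Each comparison was repeated on counts thinned to 921167 per sample. Ercc1 itself measured 27.4 to 31.0 CPM as group means in WT and 11.3 to 15.9 CPM in Ercc1Δ/- mice, with overlap of the samples at 6 weeks and none at 22 weeks. All 8 smooth muscle markers, which define most of the arch wall, were expressed. At 22 weeks on AL all 8 had lower fitted values in the mutants, 7 of them called (12.0% of all tested genes were called). In bulk tissue, fewer cells of a type and less RNA per cell cannot be told apart. A gene was called when its adjusted p did not exceed 0.05 and its fold change reached 1.2 in either direction. Interactions had no fold limit, and each compares the effect of genotype between ages or diets.

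**Figure D1:**
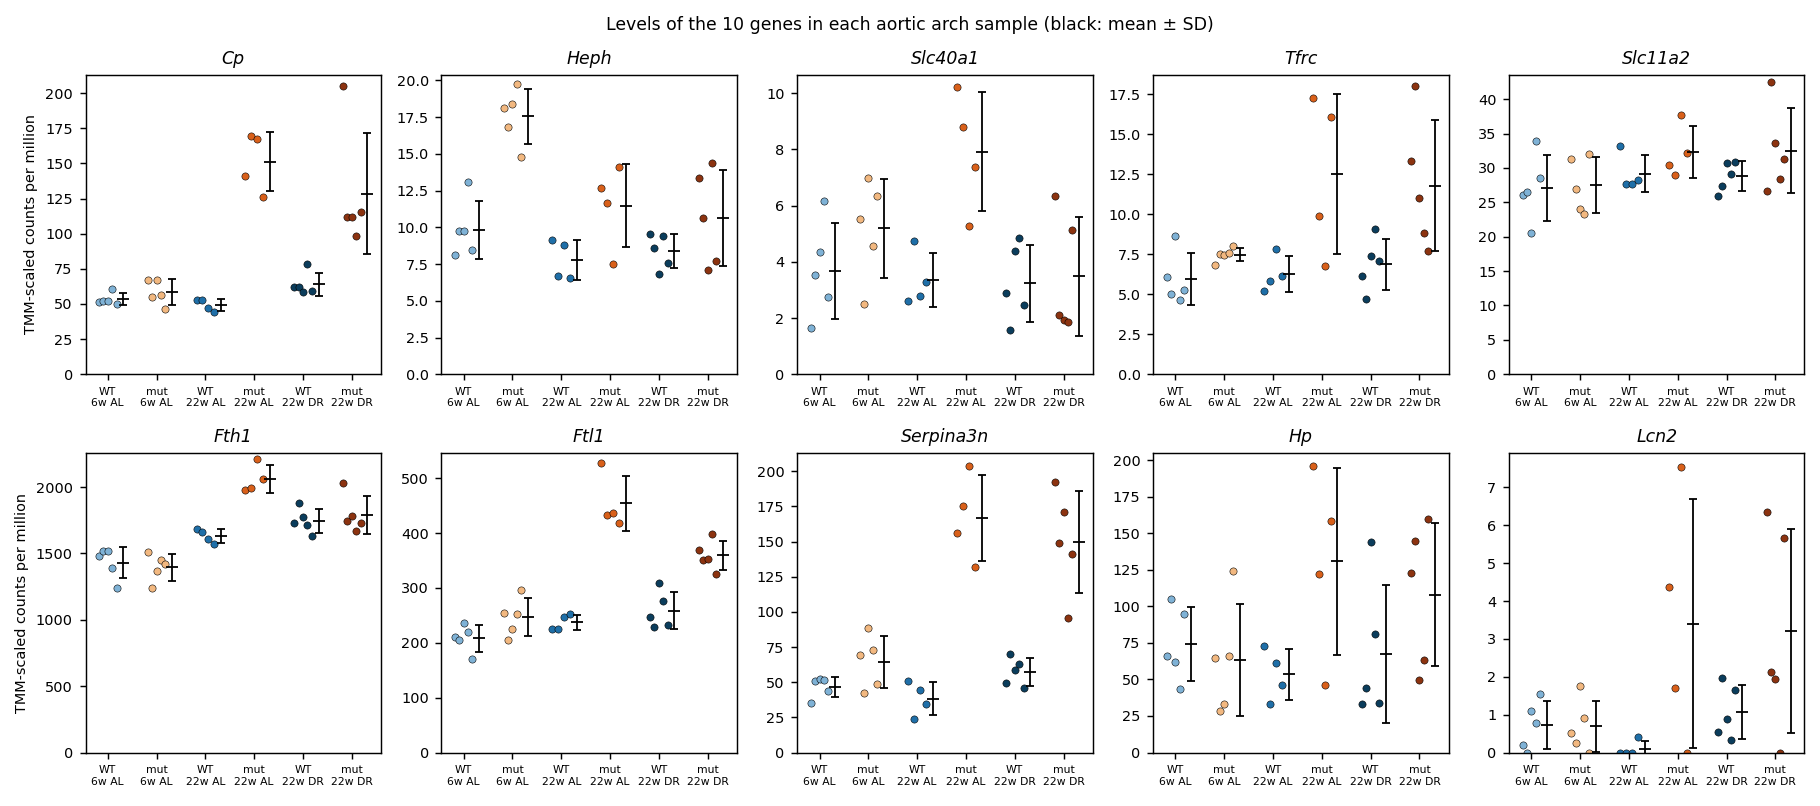
Levels of the 10 genes in each of the 28 samples, in TMM-scaled CPM on linear axes from 0, by group (mut, Ercc1Δ/-; w, weeks); points are mice and black bars are mean ± SD. Cp, Ftl1 and Serpina3n lie above every WT sample in the Ercc1Δ/- mice of 22 weeks on both diets, whereas Heph is highest in Ercc1Δ/- mice of 6 weeks.

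At 6 weeks on AL, Heph was the only 1 of the 9 tested members called between genotypes, where 1.70% of all tested genes were called. Heph, Serpina3n, Slc40a1 and Ftl1, 4 of the 9, had an unadjusted p under 0.05 there, as had 1584 of all tested genes. At 22 weeks on AL, 7 of the 9 were called, all higher in Ercc1Δ/- mice, with 12.0% of all tested genes called, and 4 were called without sample 004. This contrast chose Cp, so that nothing is read from this count and its values are given without p. At 22 weeks on DR, Cp, Serpina3n and Ftl1 were called higher in Ercc1Δ/- mice, 3 of 9 against 13.0% of all tested genes. With age on AL, none of the 8 tested members other than Cp was called in WT mice (0.235% of all tested genes), and DESeq2 called 0. Of the 8, 1 had an unadjusted p under 0.05, as had 1068 of all tested genes. In Ercc1Δ/- mice, 3 of these 8 were called, Serpina3n, Ftl1 and Fth1, all higher with age, where 4.69% of all tested genes were called. The interaction of genotype and age was called for 2 of the 8, Serpina3n and Ftl1 (0.842% of all tested genes). Since they share samples with the contrast that chose it, the age, diet and interaction values of Cp are likewise given without a test.

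None of the 8 other tested members was called for DR by the edgeR test. In WT mice none of the 8 was called (1.28% of all tested genes), and DESeq2 called 0. At an unadjusted p under 0.05 stood 1 of the 8 and 1581 of all 12353 tested genes. In Ercc1Δ/- mice none was called (1.64%), and DESeq2 called Ftl1. There, 3 of the 8 and 1854 of all tested genes had an unadjusted p under 0.05. The interaction of genotype and diet was called for none of the 8 (0.0971%), and DESeq2 called 0. Its unadjusted p was under 0.05 for 4 of the 8 and for 1077 of all tested genes. Between females and males over all groups none of the 9 was called (0.186%), and DESeq2 called 0. An unadjusted p under 0.05 was reached by 0 of the 9 and by 966 of all tested genes. Without Cp, the median log2 fold change of the 8 members was 0.34 for genotype at 6 weeks, 0.44 for genotype on DR and 0.76 for age in Ercc1Δ/- mice, and the medians of all tested genes lay between -0.01 and 0.03 in the 10 comparisons.

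**Figure D2:**
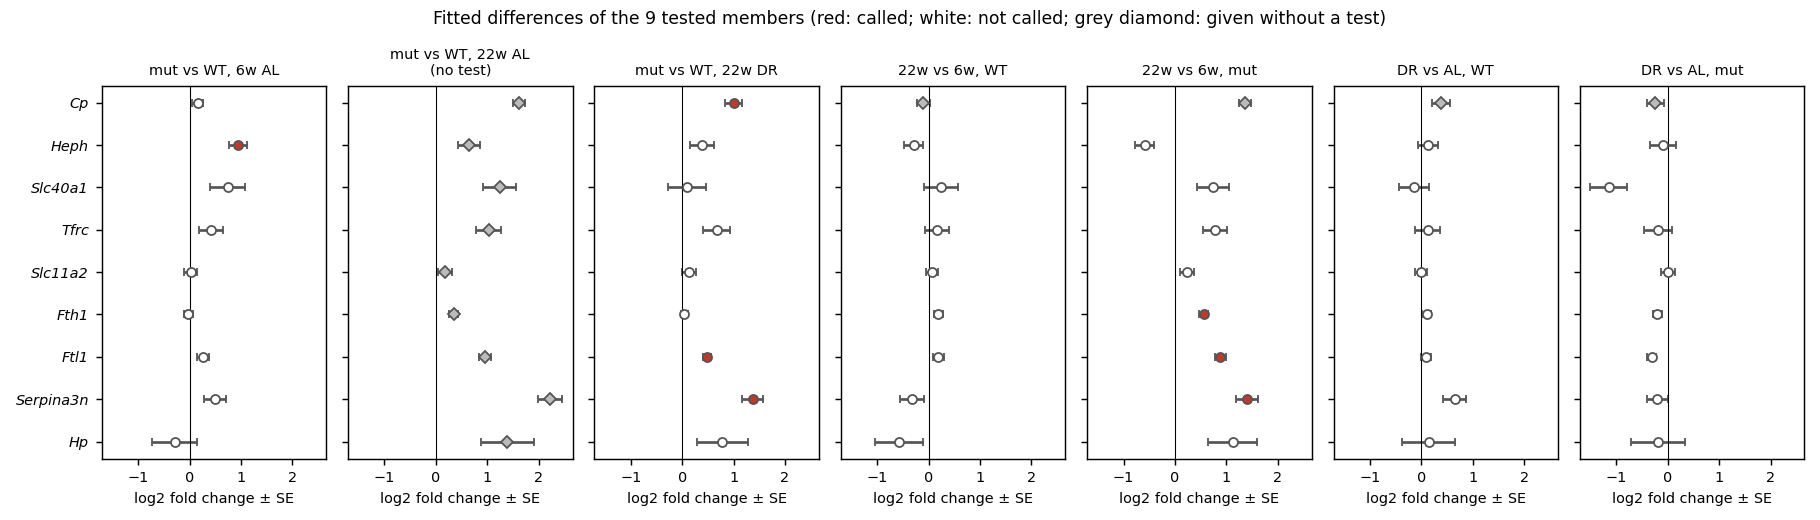
Fitted log2 fold change ± SE of the 9 tested members in 7 comparisons on a shared axis; red points were called, white points were not, and grey diamonds are given without a test because they share samples with the contrast that chose Cp. The values in Ercc1Δ/- against WT mice on DR range from 0.04 for Fth1 to 1.37 for Serpina3n.

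Of the ferroxidases, Cp (ENSMUSG00000003617, chr3:20011090-20063930) was high in the Ercc1Δ/- mice of 22 weeks and near the WT level in those of 6 weeks. At 6 weeks, WT mice had 50.15, 51.6, 52.05, 52.1 and 60.9 CPM and Ercc1Δ/- mice 46.5, 54.8, 56.5, 67.4 and 67.4 CPM. These ranges overlapped, and the difference (log2 fold change 0.16 ± 0.11 SE) was not called (adjusted p = 0.64), with a 95% interval of the log2 fold change from -0.07 to 0.38. At 22 weeks on AL, WT mice had 44.1, 47.3, 52.6 and 52.7 CPM and Ercc1Δ/- mice 126, 141, 167 and 170 CPM. The lowest mutant was above the highest WT mouse, and the fitted difference was 3.08-fold (log2 1.62 ± 0.12 SE). Just beside it in the order by p stood Cdkn1a, the cell cycle inhibitor p21, at a log2 fold change of 2.02 ± 0.15 SE, and Htra4, a secreted serine protease, at 1.80 ± 0.15 SE. From 6 to 22 weeks, the fitted log2 fold change of Cp was -0.10 ± 0.12 SE in WT and 1.36 ± 0.12 SE in Ercc1Δ/- mice.

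On DR, Cp measured 58.9, 59.4, 61.9, 61.9 and 78.6 CPM in WT mice and 98.7, 112, 112, 115 and 205 CPM in Ercc1Δ/- mice. All mutants were above all WT mice, with a 2.00-fold difference (log2 1.00 ± 0.16 SE, adjusted p = 0.000398). The groups compared share no mouse with the contrast that chose Cp, although the AL mice of 22 weeks entered the same fit. With the 2 DR groups alone in the fit the log2 fold change was 0.99 (adjusted p = 0.00647). The highest value came from sample 006, in which mitochondrial genes took 9.22% of the gene counts, the largest share among the 28 samples, and their part in it was not tested. Without sample 006 the log2 fold change was 0.78 (adjusted p = 4.18e-05), and on thinned counts it was 1.03 (adjusted p = 0.00174). Against AL, Cp on DR stood at a log2 fold change of 0.38 ± 0.17 SE in WT mice, whose 2 groups did not overlap, and of -0.24 ± 0.17 SE in Ercc1Δ/- mice, whose groups overlapped. Without sample 006, the latter became -0.46. Sex shifted Cp by a log2 fold change of -0.06 ± 0.09 SE (adjusted p = 0.939).

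Since ceruloplasmin in plasma is made mainly by the liver, hepatocyte markers are given beside these values. The 10 markers summed to 23.5 to 107.4 CPM in WT and 51.7 to 129 CPM in Ercc1Δ/- mice at 22 weeks on AL, and to 73.3 to 176 and 106 to 203 CPM on DR. Over the 28 samples, most counts of these markers fell on Cyp2e1 (7134) and Ahsg (1616), followed by Tat (164), while Alb had 21. Of the 10 markers, Ttr and Fgb had no count in any of these 4 groups, and Alb had none on DR. Of the 2 that were tested, Ahsg, the plasma protein fetuin A, was called higher in Ercc1Δ/- mice with age (log2 1.62 ± 0.24 SE, adjusted p = 0.000124) and against WT on DR (0.95 ± 0.25 SE, adjusted p = 0.0179). The mouse with the most Cp was the one with the highest hepatocyte sum in 1 of the 6 groups. Summed macrophage markers were 242 to 358 CPM in WT and 560 to 1033 CPM in Ercc1Δ/- mice on AL, and 146 to 279 and 357 to 1225 CPM on DR. The part of these cells in the Cp values was not tested.

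Heph (ENSMUSG00000031209, chrX:95498965-95621010), the membrane-bound relative of Cp, was higher in Ercc1Δ/- mice at 6 weeks. WT mice of 6 weeks had 8.15, 8.45, 9.72, 9.76 and 13.1 CPM and Ercc1Δ/- mice 14.8, 16.8, 18.2, 18.4 and 19.7 CPM. The groups did not overlap and differed 1.92-fold (log2 0.94 ± 0.17 SE, adjusted p = 0.0073). The call held in all 18 alternatives, with log2 fold changes from 0.87 to 1.33. In the older AL mice, WT ranged from 6.56 to 9.16 CPM and Ercc1Δ/- from 7.53 to 14.1 CPM, with overlap and a log2 fold change of 0.64 ± 0.21 SE, which was 0.07 on thinned counts. On DR the ranges were 6.85 to 9.56 and 7.12 to 14.4 CPM, and the log2 fold change of 0.39 ± 0.23 SE was not called (adjusted p = 0.286). With age, Heph stood at -0.59 ± 0.19 SE in Ercc1Δ/- mice, below the call (adjusted p = 0.0794) although the groups did not overlap. On thinned counts this value was -1.08 (adjusted p = 0.0416). Its raw counts ran from 9 to 77 per sample.

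Within each sample, Cp had 5.52 ± 0.641 counts per Heph count in WT mice of 6 weeks and 3.33 ± 0.36 in Ercc1Δ/- mice (SD, n = 5 each). In the older mice on AL the ratio was 6.43 ± 1.103 in WT and 14.2 ± 5.80 in Ercc1Δ/- mice (SD, n = 4 each). On DR it was 7.70 ± 0.875 and 12.7 ± 3.88 (SD, n = 5 each). The ratio of the mutants was thus below every WT sample at 6 weeks (2.86 to 3.71 against 4.65 to 6.33) and above every WT sample at 22 weeks on AL (8.95 to 22.2 against 5.39 to 7.85), and it overlapped on DR (6.87 to 15.7 against 6.47 to 8.59). No test was made on these ratios, since Cp was chosen on part of these samples.

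**Figure D3:**
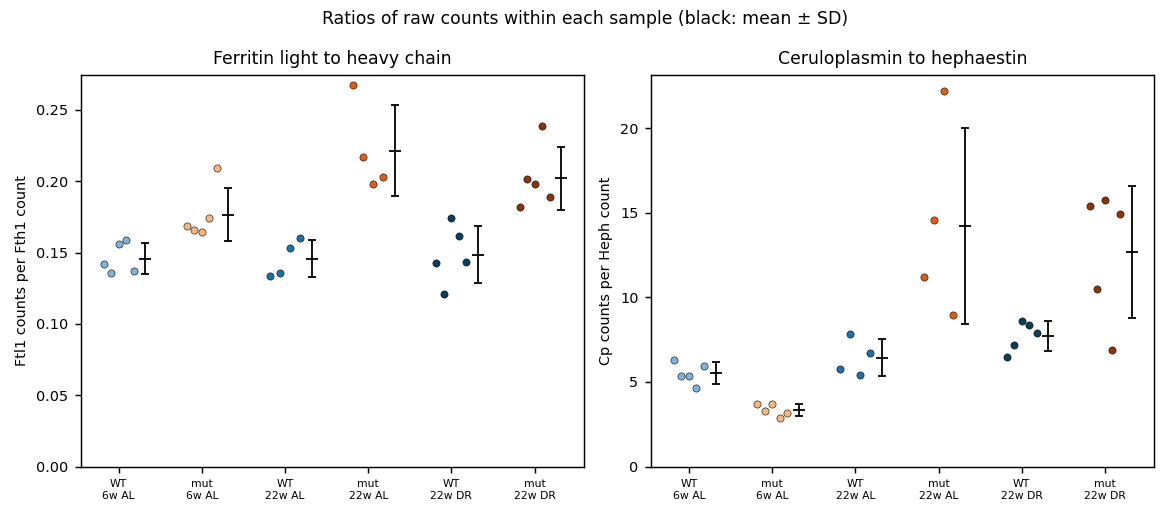
Raw counts of Ftl1 per count of Fth1 (left) and of Cp per count of Heph (right) in each sample by group, on linear axes from 0, with black bars for mean ± SD. The Ftl1 to Fth1 ratio averages 0.146 in WT and 0.221 in Ercc1Δ/- mice at 22 weeks on AL, and on AL the Cp to Heph ratio lies below WT at 6 weeks and above WT at 22 weeks, with overlap on DR.

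The iron exporter Slc40a1 (ENSMUSG00000025993, chr1:45947211-45965683) was measured with 2 to 42 counts per sample. At 22 weeks on AL, WT mice had 2.62, 2.77, 3.28 and 4.72 CPM and Ercc1Δ/- mice 5.27, 7.39, 8.79 and 10.2 CPM, without overlap (log2 fold change 1.24 ± 0.32 SE). On DR, Ercc1Δ/- mice had 1.84, 1.94, 2.12, 5.14 and 6.35 CPM and WT mice 1.57 to 4.85 CPM. Genotype on DR gave a log2 fold change of 0.09 ± 0.37 SE (adjusted p = 0.918). DR against AL in Ercc1Δ/- mice gave -1.15 ± 0.36 SE, which was not called (adjusted p = 0.104), and the groups overlapped in 1 of the 5 DR mice. Without sample 006 it was called at -1.48 (adjusted p = 0.0417). This was the only 1 of 17 alternatives with a call, and samples 014 and 016 on DR had 2 and 3 raw counts. Whether DR acted differently in the 2 genotypes was not shown (interaction on the log2 scale with a 95% interval from -1.92 to -0.08 before adjustment, adjusted p = 0.559).

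Ferroportin is abundant in macrophages that recycle iron, and macrophage markers moved with genotype and diet. Of 8 tested markers, 5 were called higher in Ercc1Δ/- than in WT mice on DR (13.0% of all tested genes were called). In Ercc1Δ/- mice, 4 were called lower on DR than on AL (1.64% of all tested genes), among them C1qa at -0.99 ± 0.13 SE (adjusted p = 0.000139). The summed macrophage level of Ercc1Δ/- mice was 243 to 601 CPM at 6 weeks, 560 to 1033 CPM at 22 weeks on AL and 357 to 1225 CPM on DR, and none of the 9 markers was at 0. The sample with the most macrophage signal, 016 on DR at 1225 CPM, had 1.94 CPM of Slc40a1. That value came from 3 raw counts, too few to place its level closely. The mouse highest in both was the same in 2 of the 6 groups, and the mouse lowest in both in 3 of 6. Their part in the values of Slc40a1 was not tested.

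**Figure D4:**
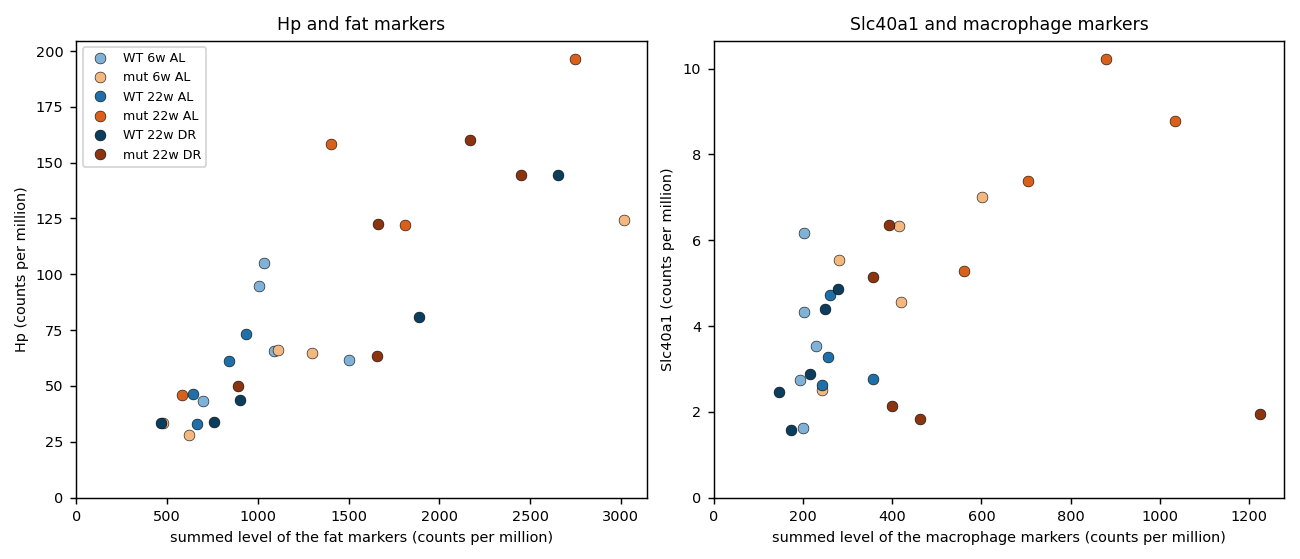
Hp against the summed level of 10 fat markers (left) and Slc40a1 against the summed level of 9 macrophage markers (right), both axes in CPM from 0, with 1 point per mouse colored by group. The same mouse is highest in both Hp and fat signal in 4 of the 6 groups, and in both Slc40a1 and macrophage signal in 2. In Ercc1Δ/- mice on DR, the sample with 1225 CPM of macrophage markers has 1.94 CPM of Slc40a1, from 3 raw counts.

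Of the genes of iron uptake, Tfrc (ENSMUSG00000022797, chr16:32427556-32451612) varied widely among the older mutants. At 22 weeks on AL, WT mice had 5.24, 5.84, 6.15 and 7.84 CPM and Ercc1Δ/- mice 6.78, 9.93, 16.1 and 17.3 CPM, overlapping in 1 mutant (log2 fold change 1.03 ± 0.24 SE, and 0.78 without sample 004). On DR, WT mice ranged from 4.70 to 9.06 CPM and Ercc1Δ/- mice from 7.71 to 18.1 CPM. That difference of 0.67 ± 0.26 SE was not called (adjusted p = 0.0932). With age in Ercc1Δ/- mice the log2 fold change was 0.78 ± 0.24 SE, again not called (adjusted p = 0.0604), but called when sample 005 (adjusted p = 0.0431) or 013 (adjusted p = 0.0204) was left out. Tfrc is also a marker of red cell precursors, and the summed erythroid and blood markers of Ercc1Δ/- mice ran from 57.8 to 894 CPM on AL and 47.8 to 877 CPM on DR, with Epb42 and Rhag at 0. In none of the 6 groups was the same mouse highest in both. Their part was not tested.

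The transporter Slc11a2 (ENSMUSG00000023030, chr15:100285776-100322953) was called in no comparison and in none of their alternatives. Its group means lay between 27.1 ± 4.79 (SD, n = 5, WT, 6 weeks) and 32.5 ± 6.199 CPM (SD, n = 5, Ercc1Δ/-, DR). The 95% interval of its log2 fold change by genotype was -0.22 to 0.27 at 6 weeks and -0.12 to 0.39 on DR, and both reach past the 1.2-fold limit (0.263 on the log2 scale).

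Among the storage genes, both ferritin chains rose with age in Ercc1Δ/- mice, and the light chain rose further. Ftl1 (ENSMUSG00000050708, chr7:45107367-45109308) had 206, 224, 253, 255 and 297 CPM in Ercc1Δ/- mice of 6 weeks and 418, 432, 438 and 528 CPM at 22 weeks on AL. The ages did not overlap and differed 1.84-fold (log2 0.88 ± 0.11 SE, adjusted p = 1.87e-05). In WT mice Ftl1 went from 170 to 236 CPM at 6 weeks to 225 to 252 CPM at 22 weeks, an overlap with a log2 fold change of 0.19 ± 0.11 SE (adjusted p = 0.677). The interaction of 0.69 ± 0.16 SE was called (adjusted p = 0.0355), but it was called in only 11 of 25 alternatives and was lost when any 1 of 13 samples was left out (adjusted p up to 0.115).

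On DR, Ftl1 had 228, 233, 247, 277 and 308 CPM in WT and 326, 352, 352, 369 and 399 CPM in Ercc1Δ/- mice. All mutants were above all WT mice, by 1.40-fold (log2 0.48 ± 0.08 SE, adjusted p = 0.000283). The Ercc1Δ/- mice on DR were also below all those on AL, and the log2 fold change of -0.31 ± 0.09 SE was not called by edgeR (adjusted p = 0.0672) and was called by DESeq2 (adjusted p = 0.0281). The genotypes differed on AL at 22 weeks by a log2 fold change of 0.95 ± 0.12 SE.

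Fth1 (ENSMUSG00000024661, chr19:9957911-9962462) was the most abundant member. In Ercc1Δ/- mice it had 1241, 1364, 1418, 1450 and 1510 CPM at 6 weeks and 1976, 1996, 2060 and 2209 CPM at 22 weeks on AL, a 1.47-fold rise (log2 0.56 ± 0.09 SE, adjusted p = 0.000206). In WT mice the ages did not overlap either, with 1241 to 1518 and 1569 to 1687 CPM, but the log2 fold change of 0.19 ± 0.09 SE was not called (adjusted p = 0.533). The genotypes differed by 0.35 ± 0.09 SE on AL at 22 weeks. On DR they stood at 1630 to 1881 CPM in WT and 1671 to 2031 CPM in mutants, at a log2 fold change of 0.04 ± 0.07 SE (adjusted p = 0.808).

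In raw counts, Ftl1 stood at 0.146 ± 0.0107 per Fth1 count in WT and 0.177 ± 0.0188 in Ercc1Δ/- mice of 6 weeks (SD, n = 5 each). The ratio was 0.146 ± 0.0132 and 0.221 ± 0.0318 at 22 weeks on AL (SD, n = 4 each) and 0.149 ± 0.0202 and 0.202 ± 0.0221 on DR (SD, n = 5 each). At each age and on each diet all mutants had a higher ratio than all WT mice. Ferritin genes have processed copies in the genome, and reads that align to several places were not counted, so that part of their reads may be missing. The 15 such copies in the table took 619 counts over 28 samples, 0.316% of the sum with Fth1 and Ftl1. Macrophages are rich in ferritin, and their summed markers in Ercc1Δ/- mice were at 243 to 601 CPM at 6 weeks and 560 to 1033 CPM at 22 weeks on AL. Their part in the ferritin values was not tested.

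Of the acute-phase members, Serpina3n (ENSMUSG00000021091, chr12:104372810-104380597) was called on DR, with age and for the interaction with age, and Hp was called in none of the comparisons. In Ercc1Δ/- mice it had 42.5, 49.0, 69.5, 73.2 and 88.3 CPM at 6 weeks and 132, 156, 175 and 204 CPM at 22 weeks on AL. The ages did not overlap and differed 2.64-fold (log2 1.40 ± 0.21 SE, adjusted p = 0.00061). In WT mice the values were 35.2 to 52.05 and 23.6 to 50.8 CPM, with a log2 fold change of -0.32 ± 0.23 SE (adjusted p = 0.775). The interaction was 1.72 ± 0.31 SE (adjusted p = 0.0127) and was called in all 25 alternatives.

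On DR, Serpina3n measured 45.6, 49.2, 59.0, 62.8 and 70.1 CPM in WT and 95.7, 141, 149, 171 and 192 CPM in Ercc1Δ/- mice. Again all mutants were above all WT mice, 2.58-fold (log2 1.37 ± 0.20 SE, adjusted p = 0.000332). DR against AL gave 0.65 ± 0.22 SE in WT (adjusted p = 0.191) and -0.20 ± 0.21 SE in Ercc1Δ/- mice (adjusted p = 0.707), both without a call. At 6 weeks the genotypes overlapped (0.50 ± 0.21 SE, adjusted p = 0.329), and at 22 weeks on AL they differed by 2.22 ± 0.24 SE. Serpina3n lies in a cluster of close relatives, of which Serpina3c, Serpina3f, Serpina3g, Serpina3i, Serpina3k and Serpina3m were below the filter on counts. Reads shared with them could not be assigned to 1 gene.

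Hp (ENSMUSG00000031722, chr8:110301759-110305804) varied widely among mice of the same group. On AL, WT mice had 33.1, 46.4, 61.1 and 73.1 CPM and Ercc1Δ/- mice 45.95, 122, 158 and 196 CPM, overlapping in 1 mutant (log2 fold change 1.39 ± 0.51 SE, and 1.75 without sample 013). On DR, WT mice had 33.2, 34.0, 43.9, 80.9 and 144 CPM and Ercc1Δ/- mice 49.9, 63.3, 123, 144 and 160 CPM. These overlapped, with a log2 fold change of 0.78 ± 0.49 SE (adjusted p = 0.352). With age the log2 fold changes were -0.57 ± 0.47 SE in WT and 1.12 ± 0.47 SE in Ercc1Δ/- mice (adjusted p = 0.837 and 0.231).

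Fat cells also make haptoglobin, and the arch is wrapped in fat. The 10 fat markers, none of them at 0, summed to 646 to 934 CPM in WT and 582 to 2745 CPM in Ercc1Δ/- mice at 22 weeks on AL, and to 469 to 2655 and 891 to 2451 CPM on DR. The mouse with the most Hp was also the one with the most fat signal in 4 of the 6 groups, and the mouse with the least was the same in 4 of 6. Their part in the values of Hp was not tested.

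Lcn2 (ENSMUSG00000026822, chr2:32274645-32278264) exceeded 10 counts in 3 samples, with at most 18, and its group means were compared by exact permutation, two-sided. In WT mice of 22 weeks on AL it had 0 counts in 3 mice, which allows up to 0.373 to 0.769 CPM, and 0.41 CPM in the fourth. Ercc1Δ/- mice had 0, 1.70, 4.38 and 7.53 CPM on AL and 0, 1.94, 2.12, 5.66 and 6.35 CPM on DR, against 0.324 to 1.96 CPM in WT mice on DR. Of 6 comparisons, the smallest exact p was that of DR in WT mice, with means of 1.07 and 0.103 CPM (p = 0.0317, adjusted over the 6 comparisons p = 0.19). Genotype on DR gave means of 3.21 and 1.07 CPM (exact p = 0.175, adjusted p = 0.262). None of the 6 passed the adjustment. Neutrophils store Lcn2, and of 10 neutrophil markers Ngp, Camp and Ly6g had no count in Ercc1Δ/- mice of 22 weeks on either diet. The 10 summed to 3.01 to 5.37 CPM on AL and 1.03 to 25.3 CPM on DR in these mice, and their part in the values of Lcn2 was not tested.

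Per kilobase of exons, levels in WT mice of 22 weeks on AL ran from Fth1 (464 ± 15.2 CPM per kb) over Ftl1 (177 ± 10.3), Hp (31.4 ± 10.2), Serpina3n (9.79 ± 3.04), Cp (4.39 ± 0.379), Slc11a2 (2.64 ± 0.246), Tfrc (0.887 ± 0.158), Heph (0.623 ± 0.108) and Slc40a1 (0.355 ± 0.102) to Lcn2 (0.0391 ± 0.0782; SD, n = 4). No neighbours in this order overlapped among these mice. Lcn2 had no count in samples 012, 018 and 020, so that counting error limits its separation from Slc40a1. In Ercc1Δ/- mice of the same age and diet, Cp stood at 13.5 ± 1.87 and Serpina3n at 42.7 ± 7.83 CPM per kb (SD, n = 4). There, Hp overlapped with Serpina3n, as did Tfrc with Lcn2, Lcn2 with Heph and Heph with Slc40a1.

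The other genes of the pathways were followed on 5 lists. Of 13 tested genes on the list of acute-phase plasma proteins outside the members, 4 were called higher in Ercc1Δ/- mice on DR (13.0% of all tested genes were called). The list's median stood at 0.59 on the log2 scale against 0.00 for all tested genes. Values below are log2 fold changes. Complement C4b was higher, from 150 ± 16.2 to 504 ± 242 CPM (SD, n = 5 each; log2 1.71 ± 0.23 SE, adjusted p = 0.000259). The highest of these mutants was sample 016 at 931 CPM, and their median was 394 CPM. The endotoxin-binding protein Lbp rose by 0.96 ± 0.16 SE (adjusted p = 0.000152) and Itih4 by 0.86 ± 0.13 SE (adjusted p = 0.000129). With age in Ercc1Δ/- mice, 4 of 13 were called, all higher (4.69% of all tested genes), with C4b at 1.94 ± 0.20 SE (adjusted p = 1.38e-05) and the complement inhibitor Serping1 at 0.69 ± 0.12 SE (adjusted p = 0.00119). C4b was the only 1 of the 13 called for the interaction of genotype and age (1.46 ± 0.29 SE, adjusted p = 0.0186). Between genotypes at 22 weeks on AL, 7 were called higher and 0 lower (12.0% of all tested genes). The 24 genes of the list below the filter included Saa1, Saa2, Crp and Apcs, with 3, 4, 1 and 0 counts over the 28 samples, whereas the tested Orm1 and Serpina1b had 626 each, Itih3 997 and Itih2 9187.

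Itih4 stood apart from Cp in its course. It was the only gene of that list called at 6 weeks, at 287 ± 55.8 CPM in WT and 576 ± 75.5 CPM in Ercc1Δ/- mice (SD, n = 5 each; log2 1.02 ± 0.17 SE, adjusted p = 0.00588). With DR it fell by 0.77 ± 0.13 SE on the log2 scale in WT mice (adjusted p = 0.00461) and fell by 0.60 ± 0.14 SE in Ercc1Δ/- mice (adjusted p = 0.0279). In Ercc1Δ/- mice on DR, Lbp also fell by 0.61 ± 0.16 SE (adjusted p = 0.0467), and Ctsc fell by 0.73 ± 0.13 SE (adjusted p = 0.00602). Thus 3 of 13 genes on the list were called lower and 0 higher (1.64% of all tested genes were called). Ctsc, although listed, encodes a protease of lysosomes rather than a plasma protein.

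Of 25 tested genes of acute-phase signalling, 10 were called higher and 1 lower in Ercc1Δ/- than in WT mice on DR, where 13.0% of all tested genes were called. Osmr, the receptor for oncostatin M, stood at 54.8 ± 1.52 CPM in WT and 92.2 ± 7.73 CPM in Ercc1Δ/- mice (SD, n = 5 each; log2 0.76 ± 0.09 SE, adjusted p = 2.99e-06). The transcription factor Stat3 rose by 0.37 ± 0.08 SE (adjusted p = 0.00218) and the interleukin 6 receptor Il6ra by 1.04 ± 0.24 SE (adjusted p = 0.00517), while the interleukin 11 receptor Il11ra1 fell by 0.36 ± 0.09 SE (adjusted p = 0.0063). Il6ra was highest in sample 016, at 56.35 CPM against a median of 29.2 CPM in these mutants, and Osmr in sample 006. Sample 016 also had the highest macrophage (1225 CPM) and neutrophil (25.3 CPM) sums of the group. Its part in the values of the lists was not tested. With age in Ercc1Δ/- mice (4.69% of all tested genes), 4 were called higher, with Osmr at 1.12 ± 0.14 SE (adjusted p = 2.26e-05), the feedback inhibitor Socs3 at 1.00 ± 0.25 SE (adjusted p = 0.0208) and Stat3 at 0.36 ± 0.10 SE (adjusted p = 0.0441). The interaction of genotype and age was called for Osmr alone (a 2.15-fold difference of folds, adjusted p = 0.00794). Among the ligands, Il6 (5 counts over the 28 samples), Osm (23), Il1b (22), Lif (98) and Il11 (42) were below the filter, and Clcf1 was tested with 1084 counts.

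**Figure D5:**
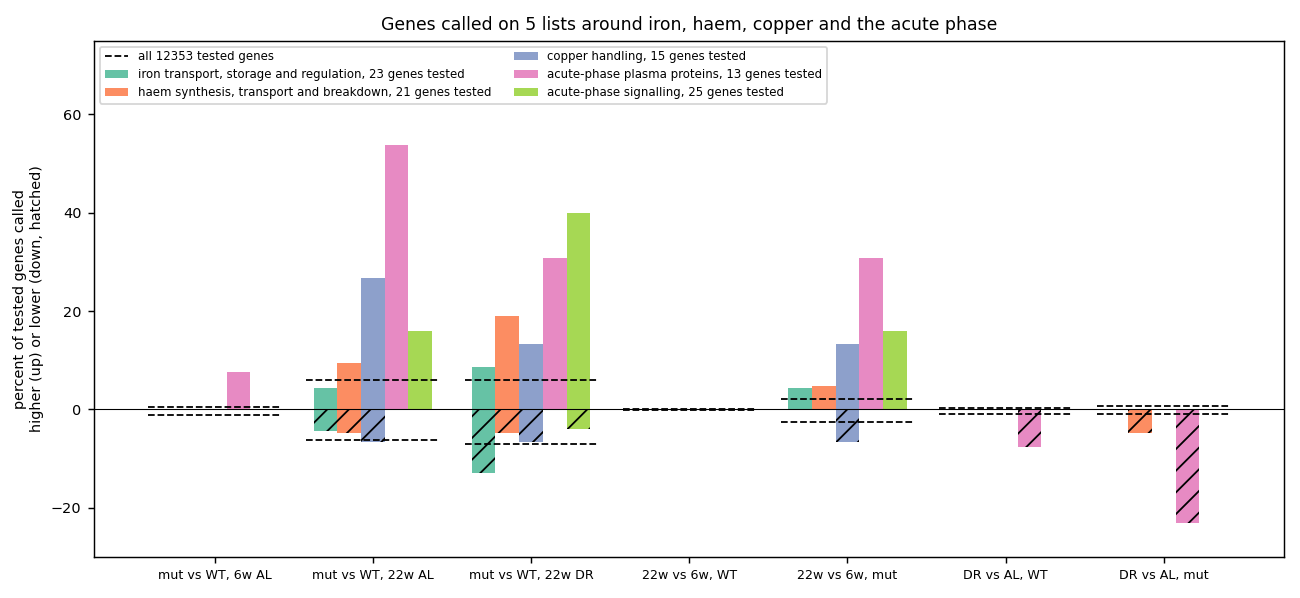
Share of the tested genes of 5 lists called higher (upward) or lower (downward, hatched) in 7 comparisons, in percent on a linear axis, with dashed lines for the share of all 12353 tested genes. On DR, 10 of 25 signalling genes and 4 of 13 genes on the acute-phase plasma protein list are called higher in Ercc1Δ/- (mut) than in WT mice. In Ercc1Δ/- mice, 3 of the 13 are called lower on DR than on AL, among them the lysosomal protease Ctsc.

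Of 23 tested genes of iron transport, storage and regulation, 2 were called higher and 3 lower in Ercc1Δ/- mice on DR (13.0% of all tested genes), with a median log2 fold change of 0.07. Slc39a8, which carries zinc, manganese and iron, rose by 1.70 ± 0.37 SE (adjusted p = 0.00587) and Hfe, a partner of the transferrin receptor, by 0.65 ± 0.17 SE (adjusted p = 0.0124). The iron chaperone Pcbp1 fell by 0.37 ± 0.08 SE (adjusted p = 0.0032), Neo1 fell by 0.33 ± 0.09 SE (adjusted p = 0.0098) and Snx3 fell by 0.27 ± 0.08 SE (adjusted p = 0.0311). With age in Ercc1Δ/- mice 1 of 23 was called, near the 4.69% of all tested genes: Bmp2, an inducer of hepcidin, at 1.11 ± 0.27 SE (adjusted p = 0.0186). Bmp2 had 3.94 to 11.3 CPM at 6 weeks and 8.29 to 18.7 CPM at 22 weeks on AL in these mice. In WT mice it had 7.59 to 15.1 and 15.45 to 21.1 CPM, without overlap of the ages. No gene of the list was called with age in WT mice (0.235% of all tested genes) or for the interaction of genotype and age (0.842%). Hepcidin itself (Hamp) had 11 counts over the 28 samples.

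Of 21 tested genes of haem metabolism, 4 were called higher and 1 lower in Ercc1Δ/- mice on DR (13.0% of all tested genes). Haem oxygenase 1 (Hmox1), which frees iron from haem, measured 15.7 ± 2.91 CPM in WT and 38.3 ± 13.9 CPM in Ercc1Δ/- mice (SD, n = 5 each; log2 1.22 ± 0.26 SE, adjusted p = 0.00376). The haem exporter Abcg2 rose by 0.77 ± 0.16 SE (adjusted p = 0.00184), Hmox2 rose by 0.46 ± 0.12 SE (adjusted p = 0.00855) and the haem-binding protein Hebp1 fell by 0.40 ± 0.13 SE (adjusted p = 0.04). With age in Ercc1Δ/- mice Hmox1 was the only 1 of 21 called, at 1.16 ± 0.29 SE (adjusted p = 0.0259), a share near the 4.69% of all tested genes. The haem transporter Slc48a1 was the only 1 called with DR in Ercc1Δ/- mice and fell by 0.40 ± 0.08 SE (adjusted p = 0.00952).

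Copper is the cofactor of Cp and Heph, and of 15 tested genes of copper handling 2 were called higher and 1 lower in Ercc1Δ/- mice on DR (13.0% of all tested genes). The metal-binding metallothioneins Mt2 and Mt1 rose by 1.70 ± 0.22 SE (adjusted p = 0.000137) and 1.04 ± 0.17 SE (adjusted p = 0.000766), and the extracellular dismutase Sod3 fell by 0.28 ± 0.08 SE (adjusted p = 0.0203). With age in Ercc1Δ/- mice, Mt2 and Mt1 rose by 1.06 ± 0.23 SE and 0.73 ± 0.17 SE (adjusted p = 0.0128 and 0.0176), and the copper-dependent lysyl oxidase Loxl2 fell from 62.6 ± 7.28 CPM (SD, n = 5) to 22.8 ± 4.04 CPM (SD, n = 4; fell by 1.44 ± 0.12 SE on the log2 scale, adjusted p = 1.19e-07). All 3 were also called for the interaction of genotype and age, at 1.74 ± 0.34 SE for Mt2, 1.32 ± 0.25 SE for Mt1 and -0.94 ± 0.17 SE for Loxl2 (adjusted p = 0.0179, 0.0127 and 0.00635).

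Across the 28 samples, the genes most like Cp by Pearson correlation of log2 CPM were Serpina3n (r = 0.929), Htra4 (0.927), Osmr (0.898), Serping1 (0.891) and Apod (0.878), a lipid carrier, out of 12352 genes. Ftl1 ranked 12 (r = 0.851), Fth1 61 (0.755), Tfrc 171 (0.675), Hp 1400 (0.436), Slc40a1 1650 (0.405), Slc11a2 1825 (0.380) and Heph 4835 (0.117). These values rest mostly on the difference between groups, which also chose Cp, and no test was made. After the mean of each group was taken off, the most alike were Med14 (0.808), Xk (0.771), Cpne8 (0.760), Vps54 (0.752) and Kdm3a (0.752), and Serpina3n had r = 0.540, Slc40a1 0.488 and Fth1 0.460. Sample 006, which has the highest Cp, enters all of these.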

How the data were processed

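RNA of the aortic arch of 29 mice was sequenced as paired-end 150 bp reads from a strand-specific library kit. The authors trimmed the reads with fastp, aligned them to mm39 with STAR 2.7.10a, removed duplicates by molecular identifiers with UMI-tools 1.1.2 and counted reads over gene bodies with HTSeq 2.0.2, per the paper and the submitters' processing notes. The deposited values are raw counts per gene, as whole numbers that were not normalized. The 5 lines that name no gene were left out of totals and tests, as was sample 003 with 400410 counts. Symbols and positions came from GENCODE (GRCm39).

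Totals on genes ran from 921167 to 9616382 (median 3256708), so that genes with few counts have a wide counting error. Genes exceeding 10 counts in over 10 of 28 samples were tested with edgeR 4.0.16 in R 4.3.3 (quasi-likelihood F test, robust, TMM), with group and sex in the model. The 18 AL samples gave the genotype and age contrasts, the 18 samples of 22 weeks gave the diet contrasts and genotype on DR, and all 28 gave sex. Adjusted p-values are Benjamini-Hochberg over 12353 genes. Intervals of 95% use the SE. Lcn2, below the filter, was compared by exact permutation (scipy 1.17.1). Limits for 0 counts are 3 counts and cover counting error only. Likeness used log2 CPM with a prior count of 2.

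The members and the lists were chosen with earlier results of these data known. Named were all members, the called genes of each pathway list (at most 3 with the smallest p per direction and comparison), the 5 genes most like Cp in each way, Ercc1 and marker genes; the genes below the filter, Cdkn1a, the neighbours of Cp in rank, and the list genes given by total count were added after their values were seen. Iron-responsive elements were searched after the lists were written. Alternatives were DESeq2 1.42.0, RLE size factors, no filter, no sex term, other sets of groups in the fit, thinned counts, sample 003 added and each sample left out. On simulated counts for genotype at 6 weeks (12353 genes), 71 of 100 genes changed 2-fold and 90 of 100 changed 3-fold were called, with 6 unchanged genes called. Results that need 1 marker gene are not reported here.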

Additional observations from a re-analysis of the deposited data

Results flagged for a closer look

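In 5 of the 60 groups of values tested (10 members in 6 groups), 1 mouse lay far from the others by Dixon's test, and chance alone gives about 1 in 20 such groups. Cp accounted for 3 of them. In WT mice of 6 weeks, sample 019 had 60.87 CPM against 50.15 to 52.13 CPM in the others. In WT mice on DR, sample 021 had 78.64 CPM against 58.87 to 61.9 CPM, and in Ercc1Δ/- mice on DR, sample 006 had 205.2 CPM against 98.66 to 115.2 CPM. For Slc11a2 in WT mice of 22 weeks on AL, sample 012 had 33.26 CPM against 27.6 to 28.19 CPM. For Lcn2 in the same group, sample 025 had 0.4101 CPM and the other 3 mice had no count, so that any count in 1 mouse meets the criterion. Sample 025 was also the deepest of this group, and for 2 of the other 3 mice 3 counts would exceed its value.

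The effect of genotype differed between 6 and 22 weeks on AL for Serpina3n, with an interaction of 1.72 ± 0.31 SE on the log2 scale (edgeR, adjusted p = 0.0127), and for Ftl1, with 0.69 ± 0.16 SE (adjusted p = 0.0355). The call of Ftl1 held in 11 of 25 alternatives.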

How the results depend on the processing

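Of the fold changes of the tested members recomputed under the alternatives, 1786 stayed on their side of the call, 30 lost a call, 11 gained one and none that was called changed direction. With 1 sample left out in turn, the members called (Cp included) numbered 1 for genotype at 6 weeks, 4 to 8 for genotype at 22 weeks on AL (4 without sample 004), 0 for age in WT mice, 4 to 5 for age in Ercc1Δ/- mice, 2 to 3 for the interaction with age, 3 for genotype on DR, 0 for DR in WT mice, 0 to 2 for DR in Ercc1Δ/- mice (2 without sample 006, of which 1, Slc40a1, was not Cp), 0 to 1 for the interaction with diet (1 without sample 006, which was Cp) and 0 for sex. Where the contrast shares samples with the choice of Cp, the place of Cp in these counts is no test of it. DESeq2 called 1 member for DR in Ercc1Δ/- mice, Ftl1. The cause of these changes was not tested. Cp, Serpina3n and Ftl1 on DR and Heph at 6 weeks were called in all 18 alternatives run for each.

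The 2 interactions were fitted on the groups they compare, so that a fit of these groups alone was not a separate alternative. Lcn2 stayed on its side of the threshold without TMM factors. No paired analysis was possible because each mouse gave 1 sample and the sample numbers are unique. Totals of the 2 genotypes at 22 weeks did not overlap, and members with few counts (Slc40a1, Tfrc, Heph, Lcn2) have a wide counting error.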
